A study of Mus musculus with 9 samples.

Results

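The 9 genes described here are the nucleic acid sensors and interferon signalling factors Ddx58, Ifih1, Dhx58, Mavs, Tmem173 (now named Sting1), Irf1, Irf7, Irf9 and Stat2. They were listed by name, with no measured value in the rule, although earlier results of these data were known when the list was made. Of the 9, 8 had a probe in the deposited series table, with 11 probes in all, among 30170 probes for 21713 genes. Irf9 had none there. Each sample, hybridised to an Agilent SurePrint G3 array in 1 colour, came from mESCs (mouse embryonic stem cells) of the male line E14Tg2a, strain 129P2/OlaHsd, kept in serum with LIF. The arrays formed 3 groups of 3. Wild-type (WT) cells were the parental line. Ring1B -/- cells (knockout, KO) had lost exon 3 of the RING1B gene on both alleles. They so lacked RING1B both as a ubiquitin ligase and as a scaffold of Polycomb repressive complex 1. The paper gives other ligases, including RING1A, a minor role in keeping histone H2A ubiquitination in these cells. Ring1B I53A/I53A cells (I53A) carried, on both endogenous alleles, alanine for the isoleucine that contacts the E2 enzyme, which removes the ligase activity but leaves the protein in the complex. The sources used here describe no further lines of either genotype on the arrays, so genotype and cell line cannot be told apart, and the study gives the arrays of a group as biological replicates without naming them as separate cultures, so the p-values measure the spread between these samples. The question was whether the raised signal of interferon-induced genes in the mutant lines was matched by the sensors that start the interferon response or by the factors that carry it.

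RIG-I (encoded by Ddx58) and MDA5 (Ifih1) bind viral RNA in the cytoplasm, LGP2 (Dhx58) modulates both, and the pair signal through the adaptor MAVS on mitochondria. STING (Tmem173) answers the second messenger that cGAS makes on cytoplasmic DNA. Both routes activate the kinase TBK1 and the factors IRF3 and IRF7, which switch on interferon genes, and secreted interferon signals through its receptor, JAK1 and TYK2 to STAT2 and IRF9, which bind, within a complex, the interferon-stimulated response element of induced genes. Irf1 is itself interferon-induced and drives antigen presentation genes among others. Most of these genes are interferon-induced, and embryonic stem cells are known for a weak interferon response.

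The promoters of 4 members hold letters that match the motifs through which interferon is known to induce genes, and are shown for that reason. Each window runs from 250 bases before to 50 after the start of the RefSeq gene (GRCm38.p6), 5′ to 3′ on the strand of the gene, with exact motif matches in capitals. The interferon-stimulated response element core was searched as GAAANNGAA and the STAT dimer site as TTCNNNGAA, on both strands. They do not overlap in these windows. Of 32851 windows in the RefSeq table, 8.56% held the first and 8.3% the second. The Irf1 window (chr11:53769764-53770063, + strand) held a STAT site whose first base lies at -90 from the start. The Ddx58 window (chr4:40239776-40240075, - strand) held a response element core at 3 after the start, the Ifih1 window (chr2:62646206-62646505, - strand) held such cores at -112 and 32, and the Stat2 window (chr10:128270248-128270547, + strand) held 1 at -221. No match was found in the windows of Mavs, Irf7 and Irf9, nor in a further window of Irf1. No window was searched for Tmem173 and Dhx58. A match describes letters only.
Irf1: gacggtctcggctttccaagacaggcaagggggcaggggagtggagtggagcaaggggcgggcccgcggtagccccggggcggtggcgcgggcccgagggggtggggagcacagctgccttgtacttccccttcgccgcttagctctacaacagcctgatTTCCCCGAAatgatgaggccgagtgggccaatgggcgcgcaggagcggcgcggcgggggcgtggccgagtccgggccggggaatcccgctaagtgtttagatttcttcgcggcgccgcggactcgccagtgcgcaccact
Ddx58: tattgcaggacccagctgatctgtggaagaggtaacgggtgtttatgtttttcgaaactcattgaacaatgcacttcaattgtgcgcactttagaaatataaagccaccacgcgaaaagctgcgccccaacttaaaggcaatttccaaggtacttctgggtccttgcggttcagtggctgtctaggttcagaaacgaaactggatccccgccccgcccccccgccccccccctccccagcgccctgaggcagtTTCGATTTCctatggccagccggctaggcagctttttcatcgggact
Ifih1: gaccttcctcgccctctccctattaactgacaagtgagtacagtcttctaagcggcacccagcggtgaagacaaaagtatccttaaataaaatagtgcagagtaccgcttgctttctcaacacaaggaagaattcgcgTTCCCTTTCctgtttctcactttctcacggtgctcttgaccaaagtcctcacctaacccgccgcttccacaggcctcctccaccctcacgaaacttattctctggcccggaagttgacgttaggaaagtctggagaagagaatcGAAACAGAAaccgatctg
Stat2: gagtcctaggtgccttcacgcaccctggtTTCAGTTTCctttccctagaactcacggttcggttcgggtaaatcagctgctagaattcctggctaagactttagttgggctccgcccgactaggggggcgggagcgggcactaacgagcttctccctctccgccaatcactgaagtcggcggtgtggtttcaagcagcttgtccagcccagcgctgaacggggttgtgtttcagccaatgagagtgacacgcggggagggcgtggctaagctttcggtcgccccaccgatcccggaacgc

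Across the interferon-induced genes the KO line stood apart. Of 61 measured genes of 3 lists (antiviral effectors, interferon-induced GTPases and antigen presentation genes), 15 were higher in KO than in WT and none was lower by limma at an adjusted p under 0.05 and over 2-fold, the rule for every call here, while an unadjusted p under 0.05 was reached by 30 that lay higher and 3 that lay lower. Among all probes, 2.73% were called higher and 1.11% lower in this comparison. Of all probes, 9.64% reached such an unadjusted p and lay higher, and 7.77% did so and lay lower. The median log2 fold change (log2FC) of the 61 genes was 0.635, against -0.0227 over all genes. In I53A 1 of the 61 was called higher and 1 lower, with a median log2FC of 0.255 against -0.00754 over all genes, where 0.235% of all probes were called higher and 0.0928% lower. Both mutant lines were set against the same 3 WT arrays, so these 2 comparisons are not independent.

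Of the members, 2 of 8 were called higher in KO (Tmem173 and Irf1), a share close to the 15 of 61 induced genes, but the other 6 were not called and the median log2FC was 0.0846. In I53A no member was called, and the median log2FC was -0.0254. An unadjusted p under 0.05 was reached there by 1 member that lay higher (Irf1) and 1 that lay lower (Ddx58). Of all probes, 5.37% reached such a p in I53A and lay higher, and 3.83% did so and lay lower. Between the lines, Tmem173 was called higher in KO than in I53A and no member was called lower, where 0.958% of all probes were called higher and 0.368% lower. Among the 8 members the KO and WT arrays did not overlap for 2, both higher in KO. Over all genes the arrays did not overlap for 12.2% that lay higher in KO and for 13.5% that lay lower. Signals are given as log2 of the quantile-normalised intensity, in which 1 unit is a doubling. They compare arrays for 1 probe and not genes with each other, since probes differ in brightness.

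**Figure D1:**
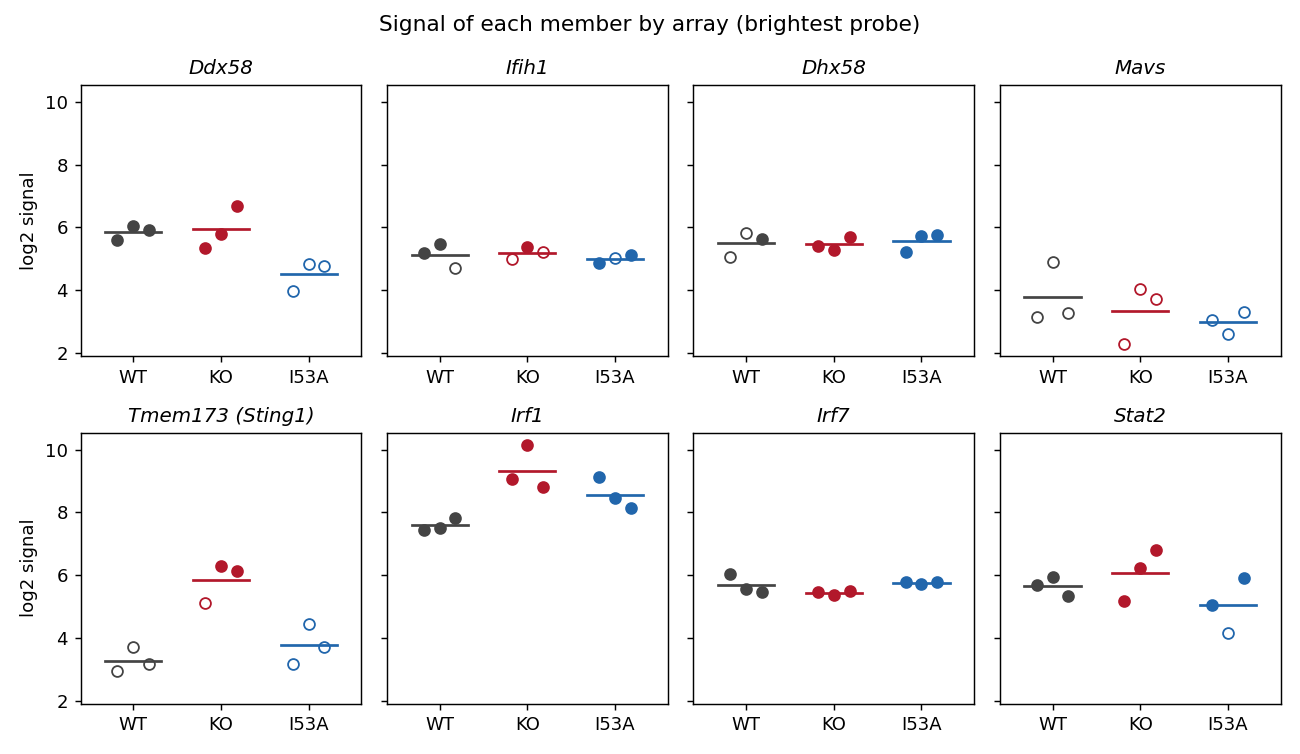
Log2 signal of the brightest probe of 8 members on the 3 arrays of WT (grey), KO (red) and I53A (blue), left to right replicate 1 to 3. Points are arrays, filled where the scanner software placed the probe well above background and open where it did not, and lines are group means. Tmem173 and Irf1 lay higher on all 3 KO arrays than on any WT array, and Ddx58 lay lower on all 3 I53A arrays than on any other array.

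Among the cytoplasmic RNA sensors, Ddx58 (chromosome 4, 40203777 to 40239825 in GRCm38.p6) was the one whose groups separated, and it did so in I53A. Its signal was 5.61, 6.03 and 5.90 on the WT arrays, 5.33, 5.78 and 6.70 on the KO arrays and 3.98, 4.83 and 4.76 on the I53A arrays. All 6 WT and KO arrays were above background and no I53A array was, and each I53A value lay under every other value. The means of WT, KO and I53A were 5.85 ± 0.22, 5.93 ± 0.70 and 4.52 ± 0.47 (SD, n = 3 arrays, as for all means here). By the point estimate, the I53A mean was 2.50-fold lower than that of WT (log2FC -1.32, SE 0.37, 95% interval -2.14 to -0.51, limma adjusted p 0.233). It was 2.66-fold lower than that of KO (95% interval of KO against I53A 0.60 to 2.22, adjusted p 0.121). Neither difference passed the adjusted threshold. Since the I53A arrays were at background, these folds set no bound on the change of the transcript. Groups that did not overlap in these directions were seen for 9.69% and 7.84% of all genes. The KO log2FC was 0.09 (95% interval -0.73 to 0.90, limma adjusted p 0.945). Within slides the I53A difference from WT was -1.42 on slide 1 and -1.14 on slide 2, where each group had 1 array. Where only probes above background on all arrays of a group were tested, the difference between KO and I53A passed (limma adjusted p 0.0429). The probe met that filter only through WT and KO, where it was above background, so this pass gives no separate support. It was the 1 pass among 18 refits. Over these the log2 difference ran from 0.50 to 1.83, and the limma adjusted p reached 0.469. With normexp background correction the I53A log2FC against WT was -0.46 (limma adjusted p 0.679). The dimmer Ddx58 probe was at background on all 9 arrays, between 2.66 and 4.60.

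Ifih1 (chromosome 2, 62595618 to 62646255) showed no such separation. Its brighter probe read 5.18, 5.46 and 4.70 in WT, 4.98, 5.39 and 5.22 in KO and 4.87, 5.02 and 5.12 in I53A, and the 3 groups overlapped. It was above background on 2, 1 and 2 of 3 arrays. Its log2FC was 0.08 in KO (95% interval -0.47 to 0.64, limma adjusted p 0.915) and -0.11 in I53A. With values this near background the interval sets no limit on the change of the transcript. The other probe, between 2.22 and 2.81, was at background on every array.

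Dhx58 (chromosome 11, 100694884 to 100704271), which encodes LGP2, showed no separation either. It read 5.05, 5.81 and 5.63 in WT, 5.41, 5.27 and 5.70 in KO and 5.22, 5.71 and 5.74 in I53A, with overlapping groups, and was above background on 1 of 3 WT arrays and on all 6 mutant arrays. The log2FC was -0.04 in KO (95% interval -0.64 to 0.56, limma adjusted p 0.970) and 0.06 in I53A. Relative to the other genes of chromosome 11, whose median log2FC in KO was 0.35 over 560 genes with a mean log2 signal above 7, the KO value of Dhx58 was -0.39.

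Mavs (chromosome 2, 131234063 to 131248025), the adaptor shared by these sensors, was at background on all 9 arrays. Its values were 3.13, 4.89 and 3.28 in WT, 2.29, 4.04 and 3.71 in KO and 3.04, 2.60 and 3.29 in I53A, so that no fold is given and no difference between lines was detectable with this probe.

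Tmem173, the gene of the DNA-sensing adaptor STING on chromosome 18, had the largest log2FC of the measured members in KO against WT, from WT values at background. It read 2.93, 3.72 and 3.16 in WT, 5.11, 6.30 and 6.13 in KO and 3.16, 4.45 and 3.71 in I53A. All WT and I53A arrays were at background. KO 2 and KO 3 were above it, and KO 1 was not, although it lay over every WT and I53A value. The group means were 3.27 ± 0.40, 5.84 ± 0.64 and 3.77 ± 0.65. KO was higher than WT (log2FC 2.57, SE 0.41, limma adjusted p 0.00621) and than I53A (log2FC 2.07, SE 0.41, adjusted p 0.0387). Values of WT and I53A under the lowest signal of any probe above background on their array were then raised to that signal. The folds so obtained were 4.21 and 3.98. They set no lower bound for this probe, which was not above background on KO 1 at 5.11. The difference from WT was 2.89 on slide 1 and 1.95 on slide 2. The call against WT was lost with normexp background correction (log2FC 0.65, adjusted p 0.101) and on slide 1 alone (0.0561), and the call against I53A was lost without WT 1, WT 3, KO 2, KO 3, I53A 1 or I53A 3 (0.0582 to 0.141). With normexp the largest KO log2FC of a member was that of Irf1 (1.40). No fold is given for I53A against WT, since both groups lay at background.

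Of the transcription factors, Irf1 (chromosome 11, 53770014 to 53778374) was higher in both mutant lines and passed the test in KO. Its brighter probe read 7.42, 7.50 and 7.83 in WT, 9.05, 10.15 and 8.80 in KO and 9.13, 8.45 and 8.14 in I53A, above background on all 9 arrays. All 6 mutant arrays lay over the 3 WT arrays, while KO and I53A overlapped, and KO 2 was the brightest array. The means were 7.59 ± 0.22, 9.34 ± 0.72 and 8.57 ± 0.50. The rise in KO was 3.36-fold (log2FC 1.75, SE 0.38, 95% interval 0.91 to 2.59, limma adjusted p 0.0293). In I53A the fold was 1.98 (log2FC 0.98, SE 0.38, limma adjusted p 0.448), and KO against I53A gave a log2FC of 0.76 (adjusted p 0.497), so a difference between the mutant lines was not shown. Groups that do not overlap were seen for 8.72% of all genes higher in I53A than in WT.

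The Irf1 call was not secure. It was lost without KO 2 (log2FC 1.34, limma adjusted p 0.0714), without KO 1 (0.0546) and without WT 1, WT 2 or WT 3 (0.105, 0.0905 and 0.0719). The second Irf1 probe, above background on 1 of 9 arrays, read 4.87, 4.40 and 4.61 in WT, 4.94, 5.21 and 5.64 in KO and 5.41, 4.89 and 4.46 in I53A. Its log2FC in KO was 0.64 (limma adjusted p 0.304). Since this probe was at background on all WT arrays, the size of that value cannot be set against the change read by the brighter probe. Irf1 lies on chromosome 11 and its KO log2FC relative to that chromosome was 1.40. The part of the chromosome shift in the Irf1 level was not tested. Within slides the KO difference was 2.01 and 1.22, and the I53A difference 1.32 and 0.31.

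Irf7 (chromosome 7, 141263183 to 141266499), the interferon-induced factor that amplifies interferon transcription, was called in no comparison. It was above background on all 9 arrays and read 6.03, 5.56 and 5.45 in WT, 5.45, 5.38 and 5.50 in KO and 5.79, 5.71 and 5.77 in I53A. WT overlapped both lines. The KO arrays lay under all I53A arrays, as was so for 8.12% of all genes, but by a small amount. The log2FC was -0.24 in KO (95% interval -0.73 to 0.25, limma adjusted p 0.632), which leaves out a doubling, and 0.08 in I53A.

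Stat2 (chromosome 10, 128270498 to 128292853), a subunit of the factor that binds the response element, spread widely within the mutant lines. It read 5.70, 5.93 and 5.35 in WT, 5.19, 6.22 and 6.79 in KO and 5.04, 4.16 and 5.92 in I53A, above background on 8 of 9 arrays, and every pair of groups overlapped. The means were 5.66 ± 0.29, 6.07 ± 0.81 and 5.04 ± 0.88. The log2FC was 0.41 in KO (95% interval -0.67 to 1.48, limma adjusted p 0.727) and -0.62 in I53A (0.747), so these arrays could show neither a doubling nor its absence in KO. The I53A difference from WT turned from -1.22 on slide 1 to 0.57 on slide 2.

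Irf9 (chromosome 14, 55603985 to 55610030), the DNA-binding partner of STAT2, was read by 1 array probe outside the series table and was not tested. It gave 4.69, 4.65 and 5.19 in WT, 4.42, 5.13 and 4.99 in KO and 4.49, 5.17 and 5.17 in I53A, above background on 1 array of each group. The 3 groups overlapped, with means of 4.85 ± 0.30, 4.85 ± 0.38 and 4.94 ± 0.39.

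**Figure D2:**
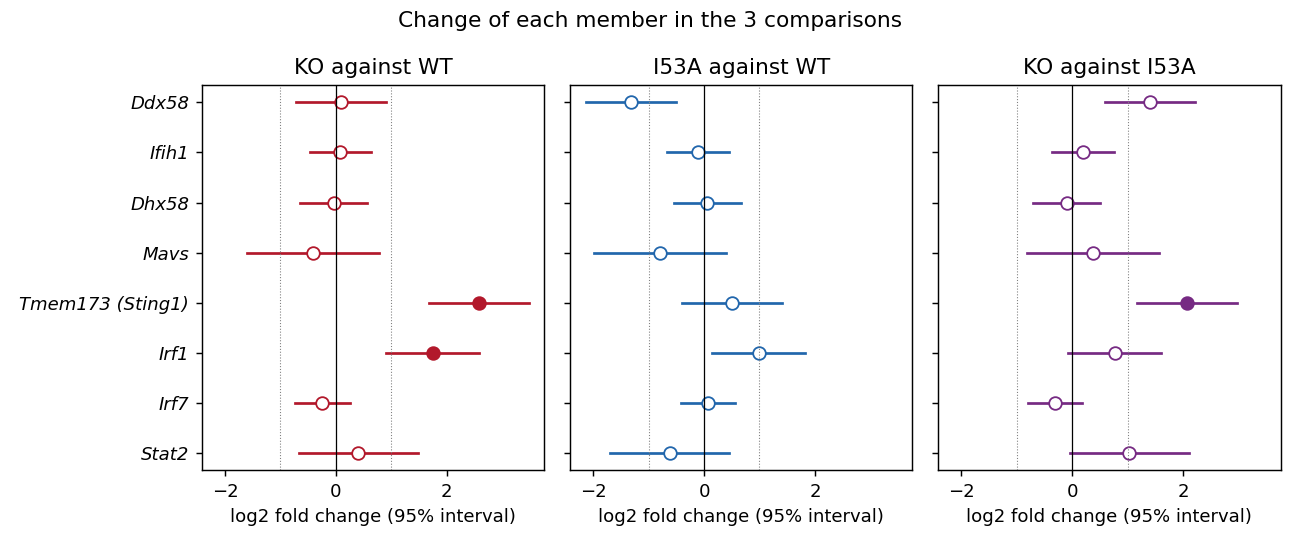
Log2FC of the brightest probe of each of 8 members in the 3 comparisons. Points are limma estimates, filled where called, bars are 95% intervals and dotted lines mark a 2-fold change. Tmem173 and Irf1 were called in KO against WT (2.57 and 1.75), no member in I53A against WT, and Tmem173 in KO against I53A (2.07).

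Among the other genes of the pathway, the members left out, calls were about as frequent as over all probes. A further 97 genes were measured (sensors, adaptors and kinases, interferons and cytokines, receptors with their kinases, other interferon regulatory factors and STATs, and inhibitors). Of these, 3 were called higher in KO, where 2.73% of all probes were, and 0 lower, with a median log2FC of -0.0249. None was called in I53A. The 3 were a sensor, a cofactor of RIG-I and an inhibitor. Zbp1, a sensor of left-handed nucleic acids and 1 of 16 further sensors measured, went from 6.66 ± 0.24 in WT to 9.01 ± 0.17 in KO and had a mean of 6.79 ± 0.24 in I53A (KO against WT log2FC 2.35, SE 0.23, limma adjusted p 0.000451). Rnf135, the RIPLET ligase that ubiquitinates RIG-I and 1 of 17 adaptors and kinases, was 3.81-fold higher in KO than in WT (limma adjusted p 0.00425), and lies on chromosome 11. Socs1, an inhibitor of JAK kinases and 1 of 25 inhibitors, was at background on all WT and I53A arrays and higher in KO than in WT (limma adjusted p 0.00176). With dim values raised as for Tmem173 the fold was 4.51, which sets no lower bound. Over 18 refits the Socs1 log2FC ran from 0.63 to 2.81 and the limma adjusted p reached 0.0561. The call was lost with normexp background correction and on slide 1 alone.

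The other sensors and kinases that share a route with the members showed no called change. Cgas, which makes the STING ligand, read 6.04 ± 0.37, 6.47 ± 0.17 and 6.27 ± 0.29 in WT, KO and I53A (limma adjusted p 0.441 in KO). Tbk1, the kinase under both MAVS and STING, had a log2FC of 0.14 in KO and -0.24 in I53A. Irf3, its substrate, had a log2FC of -0.46 in KO (limma adjusted p 0.562), and Tlr3, the endosomal RNA sensor, was at background on all 9 arrays.

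No gene of the interferon and cytokine list was called in either line. Of 14 measured, 0 were higher and 0 lower in any comparison, and 0 reached an unadjusted p under 0.05. Ifnb1, an interferon made early in a response, was at background on all 9 arrays (4.74, 4.70 and 4.77 as group means). The smallest p-values in KO were those of Ifna2, at background throughout, and Ifnl3 (log2FC -0.47, limma adjusted p 0.418). Of 8 receptor and JAK genes 0 were called, and in KO an unadjusted p under 0.05 was reached by 3. Of all probes, 9.64% reached such a p and lay higher, and 7.77% did so and lay lower. Of the 3 genes, 2 lay higher. Those 2 were Ifngr2 (log2FC 1.33, limma adjusted p 0.115) and Ifnar1, a chain of the type I receptor. Ifnar1 had means of 4.82 ± 0.36, 5.82 ± 0.59 and 5.62 ± 0.21 over WT, KO and I53A (limma adjusted p 0.128 for KO against WT). Jak1 and Tyk2 had log2FC values of 0.43 and -0.11 in KO. Of 17 other regulatory factors and STATs 0 were called, the smallest p-values being those of Stat4 (log2FC -0.72, adjusted p 0.102) and Irf8 (-0.60, 0.153). Ifnar2 had no probe in the table.

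**Figure D3:**
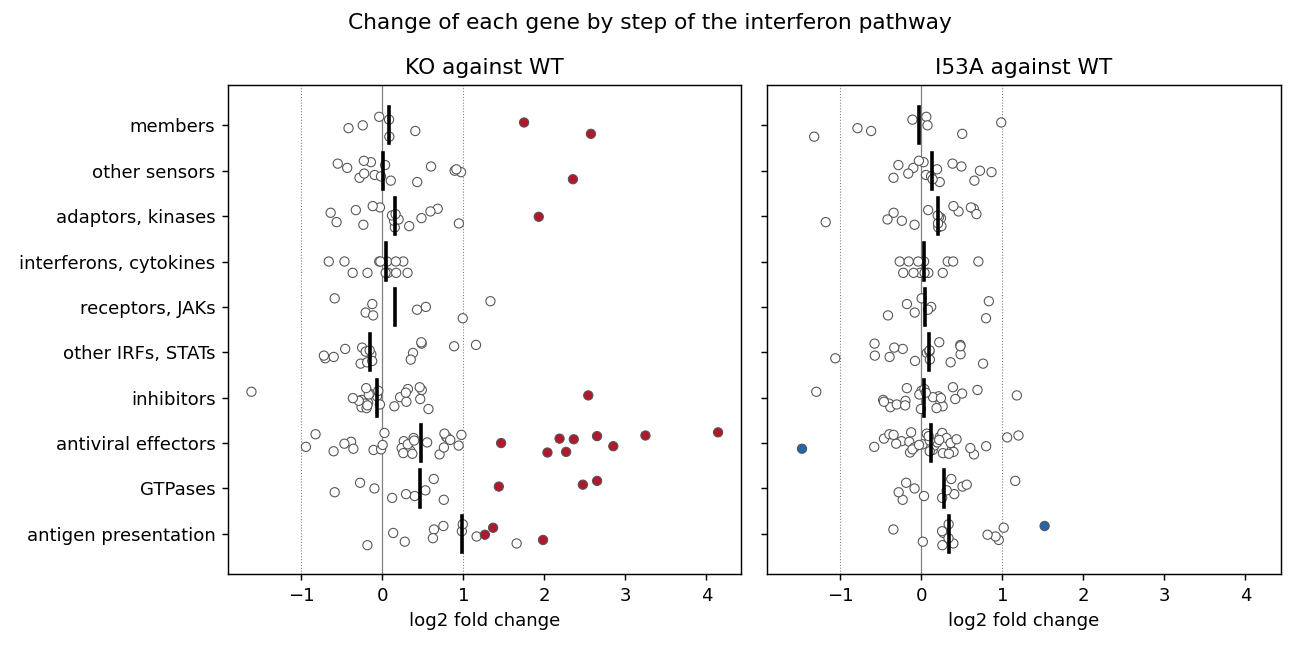
Log2FC of each measured gene in KO against WT and I53A against WT, by step of the pathway. Circles are genes (brightest probe), filled where called, black bars are list medians and dotted lines mark a 2-fold change. Called genes in KO were 15 of 61 in the 3 lowest lists, 3 of 97 in the 6 lists above them and 2 of 8 members, and in I53A 2 genes were called.

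Downstream, each of the 3 induced lists held genes called higher in KO. Among 36 antiviral effectors, 9 were called higher in KO (median log2FC 0.473) and 0 in I53A (median 0.121). Ifi27, which encodes an interferon-inducible membrane protein, went from 5.17 ± 0.13 in WT to 9.32 ± 0.41 in KO (limma adjusted p 2.1e-05) and was 5.05 ± 0.11 in I53A. The transmembrane protein gene Rtp4 (log2FC 3.25), Ifi35 (2.85) and the apoptosis factor Xaf1 (2.65) followed, as did Oas1a and Oasl2 of the oligoadenylate synthetase family (2.19 and 2.36). Ifitm1, a membrane restriction factor, and Oas1g lay lower in KO (unadjusted p under 0.05) and were not called. Phf11d, named after its value was seen, was the 1 effector called in I53A, where it fell (log2FC -1.47, limma adjusted p 0.04), and this call was lost without any 1 of the WT or I53A arrays, KO 2 or KO 3 (0.0602 to 0.168).

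Of 12 interferon-induced GTPases, which act on pathogen vacuoles, 3 were higher in KO (Irgm1, log2FC 2.65; Igtp, 2.48; Gbp3, 1.44) and 0 in I53A, where Irgm1 had a log2FC of 1.16 (limma adjusted p 0.139). Antigen presentation genes, many of them known targets of IRF1, had the highest median of the 3 lists in both lines. Of 13 measured, 3 were called higher in KO (Psmb8, log2FC 1.98, Psmb9, 1.37, and Tapbpl, 1.27), and the median log2FC was 0.982. Of the 13, 10 lay higher with an unadjusted p under 0.05, as did 9.64% of all probes. The Psmb8 call was lost without WT 1, WT 3 or KO 3 (limma adjusted p 0.0556 to 0.0625) and that of Psmb9 without WT 1, WT 3, KO 2 or KO 3 (0.0638 to 0.0782), and the mean of the probes of Psmb9 gave a log2FC of 0.34. In I53A the median was 0.336, and Tap1, which encodes a subunit of the peptide transporter, was called higher (log2FC 1.52, SE 0.21, limma adjusted p 0.0204). Tap1 read 6.21, 6.40 and 6.13 in WT, 6.79, 7.04 and 7.18 in KO and 7.64, 7.75 and 7.92 in I53A, so the 3 groups did not overlap and I53A was the highest. The Tap1 call was lost without any 1 of the WT or I53A arrays (limma adjusted p 0.058 to 0.106). Of the 15 induced genes called in KO, 5 lie on chromosome 11, among 7 measured there. Over 560 chromosome 11 genes with a mean log2 signal above 7 the median log2FC in KO was 0.35. The part of this shift in the 5 calls was not tested.

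Array by array, the median of the 61 induced genes separated the 3 groups. The median difference of the 61 induced genes from their WT mean was 0.584, 0.745 and 0.676 on the KO arrays and 0.209, 0.204 and 0.219 on the I53A arrays, with WT arrays between -0.0317 and 0.0317. In each of the 3 lists the KO arrays lay over all others. WT and I53A overlapped for the antiviral effectors (WT 1 0.0581, I53A 3 0.0557) and the GTPases (WT 1 0.127, I53A 2 0.0667). For the antigen presentation genes the I53A arrays lay between 0.416 and 0.506, over every WT array. The median difference of the 97 other pathway genes lay between -0.0697 and 0.0669 in KO and between 0.000329 and 0.158 in I53A. KO 2 had the highest median of the 61 induced genes and the highest Irf1 and Tmem173 signal. For the antigen presentation genes KO 2 was the lowest KO array (0.79, against 1.06 on KO 1 and 0.913 on KO 3). In I53A Irf1 ranged from 8.14 to 9.13.

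**Figure D4:**
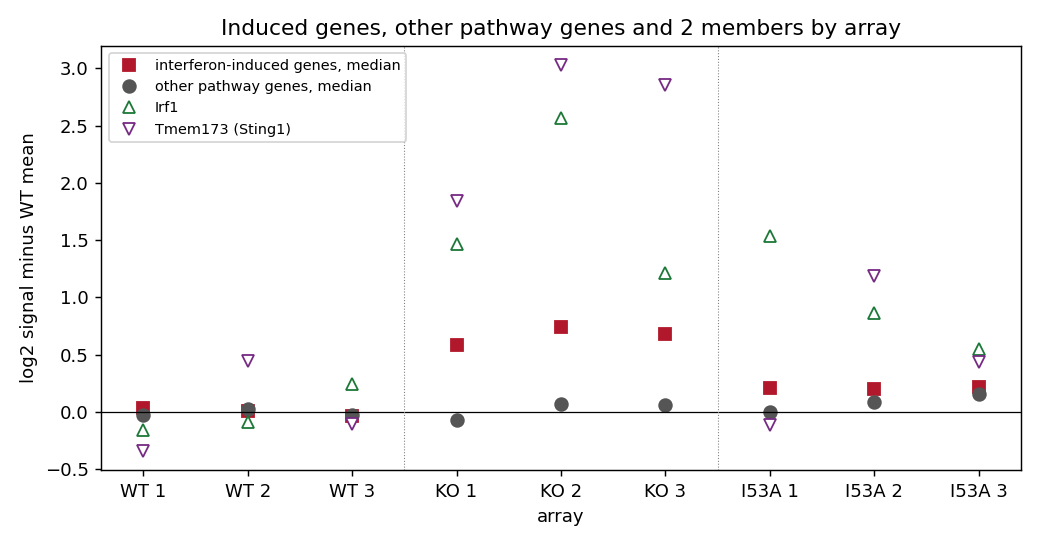
Difference from the WT mean on each of 9 arrays, in log2 units, for the median of 61 interferon-induced genes (squares), the median of 97 other pathway genes (circles), Irf1 and Tmem173 (triangles). Induced genes lay between 0.584 and 0.745 on the KO arrays and between 0.204 and 0.219 on the I53A arrays, and the other pathway genes between -0.0697 and 0.158 on the mutant arrays.

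The genes whose signal followed the called members most closely over the 9 arrays, among 12454 genes above background on all arrays of a group, were not members. For Tmem173 they were Nprl3, Csrnp3 and Kcnk4 (Pearson r 0.976 each), and for Irf1 they were Mrpl55 (0.97), Fam168a (0.943) and Sec14l2 (0.943). Nprl3, Mrpl55 and Sec14l2 lie on chromosome 11. These values describe 9 arrays in 3 groups and carry no test.

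Few markers of cell type were called. Between 9 and 11 of 11 ES cell markers were above background on an array, and Sox2 was called lower in KO (log2FC -1.03, limma adjusted p 0.0425), a call lost without any 1 of the WT or KO arrays or I53A 1 (0.061 to 0.151). No blood or immune marker (11 measured, summed linear signal 471.6 to 525.5 in WT, 451.4 to 501.2 in KO and 461.8 to 529.4 in I53A) and no endothelial marker (7 measured) was called, and Cd68 and Ptprc, which define immune cells, were above background in all 3 groups, with log2FC values of 0.07 and -0.22 in KO. The smallest p-values in KO among these were those of Lyz2 and Csf1r (log2FC -0.64 and 0.38) and of Tie1 and Esam (-0.92 and -0.48). Of 10 fibroblast markers Thy1 was called higher in KO (log2FC 1.31, limma adjusted p 0.0156), which was lost without WT 1, WT 3 or KO 1 (0.0508 to 0.0759), while Col1a2 had a log2FC of -0.98. Their part in the member levels was not tested. Fewer cells of a type and less RNA per cell cannot be told apart in such bulk samples. None of 16 housekeeping genes was called in KO, the smallest p-values being those of Sdha and Pgk1 (log2FC -0.79 and -0.64). Between 45.4% and 57.3% of the probes of an array were above background, and this and the number of arrays limit the precision. The 6 arrays WT 1, WT 2, KO 2, KO 3, I53A 1 and I53A 2 shared slide 1 and the others slide 2, and since a group always took the same slide column, the column's part cannot be told apart from the group's.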

How the data were processed

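Polyadenylated RNA of 9 mESC samples was labelled with Cy3 and hybridised to single-colour arrays. In the deposited scan files the authors' Agilent Feature Extraction 11.5.1.1 gave each spot a background-subtracted intensity on a linear scale. The authors' deposited series table held log2 values after quantile normalisation for 30170 probes, which fixed the probes tested here, and columns of their own fold changes and p-values, which were not used. Groups came from the sample titles.

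From the processed intensities, control spots (3671 of 62976 per array) and outlier spots were left out, spots of a probe were averaged on the log2 scale, and 55681 probes were quantile normalised in R 4.3.3. limma 3.58.1 (a mean for each group, moderated two-sided tests, 6 residual degrees of freedom) gave p-values adjusted by Benjamini-Hochberg over all 30170 probes, and a call needed an adjusted p under 0.05 and over 2-fold. The fit was first tested on simulated data with known changes. The brightest probe stood for a gene, and 89.3% of probes had a symbol, by accession or Ensembl gene of the table. Dim probes were those the scanner software did not place well above background.

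All 9 members were named in every array. Of each of the other 14 lists (242 entries), up to 6 called genes were named, largest change first, or the 2 with the smallest p in KO where none was called, with a fixed set of pathway genes (1 of which is not reported here) and the 3 genes most like each called member. Members and lists were chosen with earlier results of these data known. Alternatives were 75th percentile scaling, normexp (offset 50, on the median spot signal, as the scan files used here held no mean signal), the series table's own values, a background filter, the mean of a gene's probes, no fold threshold, fits of 6 arrays or 1 slide, slide or replicate number as a block, each array left out, and values relative to the chromosome.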

Additional observations from a re-analysis of the deposited data

Results flagged for a closer look

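The direct test of KO against I53A, which is also the test of whether the changes of the 2 lines from their shared WT arrays differ, passed for 13 of the genes named or counted here, all higher in KO. Among the members it passed for Sting1 (Tmem173), with a log2 difference of 2.07 (limma adjusted p 0.0387). Among the other pathway genes it passed for the sensor Zbp1 (2.21, adjusted p 0.00177) and for Rnf135 (1.71, 0.0181). Among the induced genes the log2 difference was 4.27 for Ifi27 (4.73e-05), 2.65 for Oas1a (0.00073), 2.56 for Xaf1 (0.00623), 2.18 for Oas2 (0.00271), 2.05 for both Ifi35 (0.00177) and Rtp4 (0.00608), 1.93 for Oasl2 (0.0415), 1.92 for Igtp (0.00312), 1.87 for Isg20 (0.00934) and 1.49 for Irgm1 (0.026). With 1 array left out the result was lost for Sting1 without WT 1, WT 3, KO 2, KO 3, I53A 1 or I53A 3. It was also lost for Oasl2 without WT 3 or any KO or I53A array (0.0603 to 0.16), for Irgm1 without WT 1, any KO array, I53A 1 or I53A 2 (0.0505 to 0.0847) and for Rnf135 without KO 3, I53A 1 or I53A 2 (0.0539 to 0.0767). Irf1 (0.76, 0.497), Ddx58 (1.41, 0.121) and Stat2 (1.03, 0.467) did not pass this test. No 3-array group can be screened for a single outlying array.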

How the results depend on the processing

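No named result changed direction where it was called. Of 471 values of members under an alternative, 449 kept their side of the threshold or stayed within the spread of the arrays. Of the uncalled values, 22 changed sign. Most of the 471 values belong to results that were not called in the main fit. Among refits, the KO call against WT was kept in 15 of 17 for Tmem173 and in 10 of 18 for Irf1. The Tmem173 call against I53A was kept in 8 of 17. The 2 members called in KO became 0 with normexp and on slide 1 alone, 1 with the background filter (which leaves Tmem173 out) and 1 with the replicate block (Irf1 adjusted p 0.0654), and 1 to 2 with an array left out. The 1 member called between KO and I53A became 0 with normexp, in a fit of the 6 arrays compared and on slide 1 alone, and 0 to 1 with an array left out. The 15 induced genes higher in KO became 7 with normexp and 7 on slide 1 alone, and the 10 higher than in I53A became 5 and 2. The 1 induced gene higher in I53A became 0 with 75th percentile scaling, the 6 arrays, slide 1 alone or the replicate block, 3 with the background filter, and 0 to 1 with an array left out. The 3 other pathway genes of KO became 1 on slide 1 alone, and the 2 that differed from I53A became 1 with normexp, 1 in the 6-array fit, 0 on slide 1 alone and 1 to 2 with an array left out. Over all probes, the 1159 calls in KO became 326 with normexp, 332 on slide 1 alone and 797 with the replicate block, and 610 at the fewest with an array left out. For the same settings the 99 calls in I53A became 46, 2, 25 and 22 to 87, and 265 with the background filter, 44 with 75th percentile scaling and 45 in the 6-array fit. The 400 between the lines became 132, 63, 194 and 181 to 326, and 213 in the 6-array fit. Slide 1 alone holds 2 arrays per group, so fewer samples are in that fit, and for normexp the cause was not tested. Replicate numbers did not pair the samples (correlations of deviations between -0.279 and 0.23). Dim probes, Mavs, Irf9 and the second probes of Ddx58 and Ifih1 above all, limit what can be read.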
